A study of Mus musculus with 7 samples.

Results

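The proteins of the cytosolic ribosome are described here by the RNA of their genes in microglia, the macrophages that live in brain tissue. Members were taken by symbol: Rpl or Rps followed by a number, with or without a paralog letter, together with Rplp0, Rplp1, Rplp2 and Rpsa, and without symbols marked as pseudogenes. The rule gave 85 of the 23420 genes in the table, 52 of the large subunit and 33 of the small subunit. A filter on low counts was passed by 82 of them, 49 large and 33 small. The 3 that did not pass it were Rpl26, Rpl3l and Rpl10l, and they have levels below but no fold change.

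Microglia were sorted by flow cytometry from the cortex of single mice at postnatal day 30, as cells with CD11b, low CD45 and CX3CR1. The 4 conditional knockout (cKO) mice were Tmem119creErt2+ Srgap2f/f, that is, they carried a tamoxifen-activated Cre recombinase driven by the microglial gene Tmem119 and 2 floxed copies of Srgap2, the gene of a regulator of membrane shape and the actin cytoskeleton. The 3 WT mice were Srgap2f/f, with the floxed copies and no Cre. Both groups received tamoxifen by gavage, given 2 times at 75 ug per g of body weight, on postnatal day 8 and again on day 10, so the drug is shared and Cre is not: an effect of Cre and an effect of the Srgap2 deletion cannot be told apart. The labels give no sex, litter, sort date or sequencing batch, and the share of cells that recombined is not given.

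A ribosome has a small subunit that reads the mRNA and a large subunit that joins amino acids and passes the new chain out through a tunnel. Its proteins are made in nearly equal numbers and assembled on ribosomal RNA in the nucleolus, and surplus copies are degraded. Their mRNAs are among the most abundant of most cells and begin with a run of pyrimidines, the 5' terminal oligopyrimidine (TOP) tract, through which the kinase mTORC1 and the protein Larp1 govern their translation.

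Libraries held 27016173 to 35707304 counts. Srgap2 had 344, 257, 275 and 212 CPM (counts scaled to the size of the library) in cKO libraries 1 to 4 and 979, 691 and 693 in WT libraries 1 to 3, a log2 fold change of -1.53 ± 0.17 (SE; adjusted p = 0.00525, edgeR quasi-likelihood test), which matches the labels. The 8 microglial markers summed to 48115 to 55618 CPM in cKO and 55465 to 58707 in WT, and Tmem119, the gene that drives the Cre, fell by 0.82 on the log2 scale (adjusted p = 0.0459). RNA of other cells was low but present. Summed markers were at 61.6 to 123 CPM in cKO and 66.2 to 102 in WT for border-associated macrophages, with Mrc1 highest, and Lyve1 of that list had a log2 fold change of 0.84 ± 0.34 (adjusted p = 0.248). They were at 93.8 to 145 and 109 to 120 for oligodendrocytes, mostly Mbp and Mag, and at 86.8 to 140 and 132 to 138 for astrocytes, mostly Slc1a3. Endothelial and mural markers summed to 52.9 to 72.4 and 67.4 to 75.8, nearly all Pecam1, with Cldn5, Ly6c1 and Rgs5 at 0 in every library, and monocyte and neutrophil markers to 8.15 to 10.1 and 5.85 to 10.5. Neuron markers summed to 1.46 to 3.49 and 1.46 to 1.75. The 5 listed erythroid markers, of which 4 were found in the table and the alpha globins Hba-a1 and Hba-a2 were at 0, summed to 1.42 to 20.6 CPM in cKO and 0.475 to 6.56 CPM in WT. The highest erythroid sum was in cKO library 4. The part of RNA of other cells in the results below was not tested. In all, 43 of 11991 genes tested passed the threshold of an adjusted p under 0.05, 38 higher and 5 lower in cKO. In sorted bulk RNA, fewer cells of a type and less RNA per cell cannot be told apart.

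Ribosomal protein mRNA took a larger share of the counts in every cKO library than in any WT library. Members held 1.81%, 1.85%, 1.76% and 2.17% of all counts in cKO libraries 1 to 4 and 1.25%, 1.5% and 1.60% in WT libraries 1 to 3. The means were 1.90% ± 0.19 (SD, n = 4) and 1.45% ± 0.18 (SD, n = 3), a ratio of 1.31. Large subunit genes went from 0.849% ± 0.102 in WT to 1.10% ± 0.11 in cKO and small subunit genes from 0.601% ± 0.079 to 0.794% ± 0.080, ratios of 1.30 and 1.32. Library 4 of cKO and library 1 of WT lay farthest apart, and the other cKO libraries were close to each other.

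**Figure D1:**
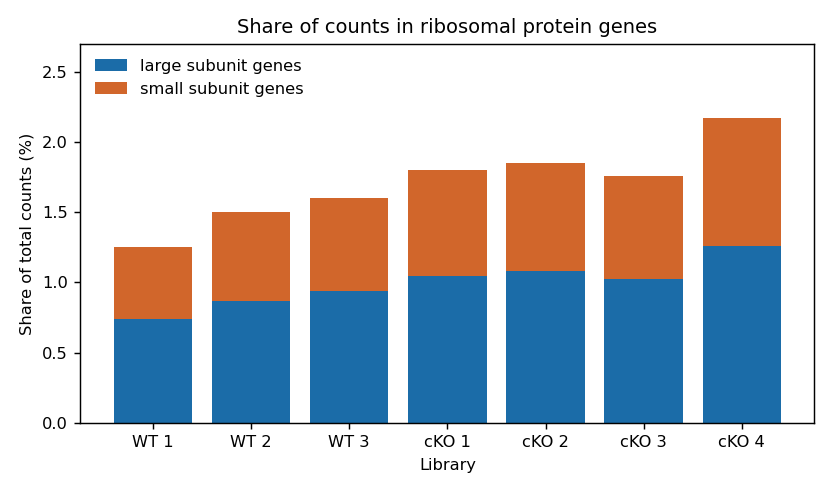
Bars show, for each of the 7 libraries, the share of total counts (%) in large subunit genes and, stacked on them, in small subunit genes. The 4 cKO libraries lie between 1.76% and 2.17% and the 3 WT libraries between 1.25% and 1.60%, and both parts of the bar move together.

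The same shift was seen gene by gene, but no single member passed the test over all genes. With edgeR's quasi-likelihood test, 0 of 82 members had an adjusted p under 0.05 in either direction, against 0.317% of all genes called higher in cKO and 0.0417% called lower. At an unadjusted p under 0.05 the counts were 69 higher and 0 lower, against 9.65% and 6.87% of all genes. Without WT library 1 the counts were 35 higher and 1 lower. The shares of all genes just given belong to the fit to all 7 libraries and not to this one. A log2 fold change above 0 was fitted for 79 of 82 members (48.1% of all genes), and the median was 0.43, a ratio of 1.35, beside -0.01 for all genes tested. Every cKO library was above every WT library for 55 of 82 members, or 67.1%, where 8.86% of all genes had such a separation. The reverse separation was seen for 0 members and for 7.2% of all genes.

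The subunits had nearly the same difference. The median log2 fold change was 0.41 for the 49 large subunit genes and 0.44 for the 33 small subunit genes, and groups did not overlap for 32 (65.3%) and 23 (69.7%) of them. The ratio of large to small subunit counts was 1.37, 1.40, 1.40 and 1.38 in cKO libraries and 1.44, 1.37 and 1.42 in WT libraries, so that the groups overlapped. Their mean log2 CPM over 7 libraries had a Pearson correlation of 0.997, a description of libraries that share one set of scaling factors. The difference between subunits itself was not tested.

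**Figure D2:**
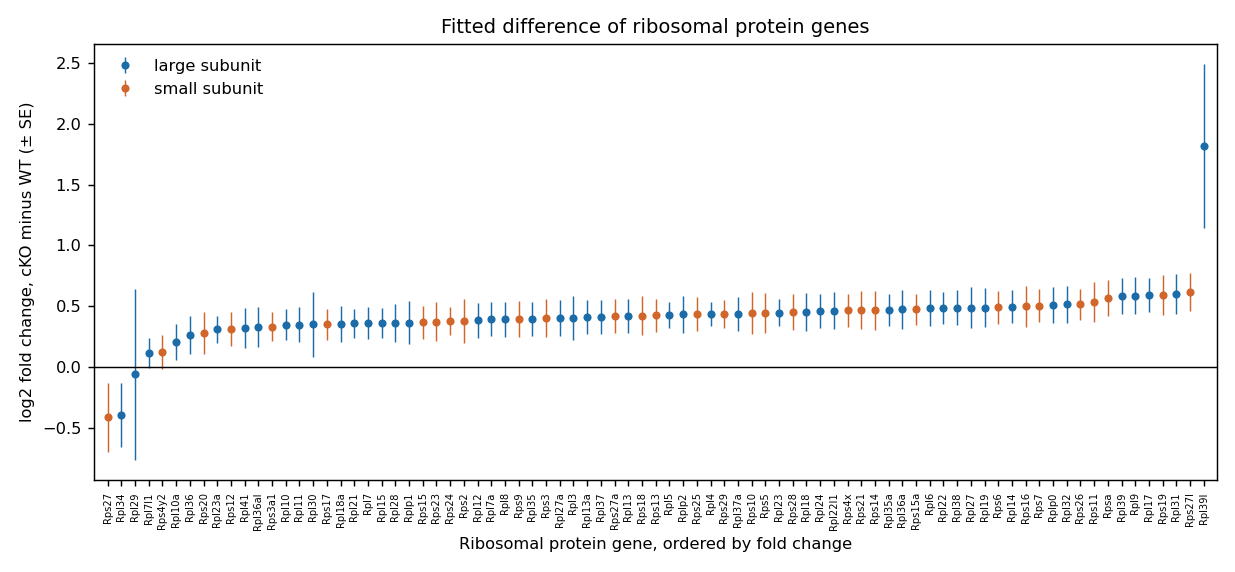
Each point is a member tested (1 is not drawn), ordered by its fitted log2 fold change (cKO minus WT), with its SE as the bar and its subunit as the colour. The points of both subunits are interleaved and 3 lie below 0, with Rps27 lowest and Rpl39l highest.

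The start of the members' genes is shown next, because the TOP tract is a known feature of their mRNAs. The part of the tract in the difference between groups was not tested. RefSeq promoter windows of GRCm38.p6, 250 bases before to 50 after each annotated start, were matched for 64 members. A C at the annotated first base followed by at least 4 further pyrimidines (C or T) on the transcribed strand was found for 13 of the 64 (20.3%), against 3.01% of 27025 genes. The annotated base is often not the base at which most transcripts begin, so the tract can lie nearby. In the lines below, capitals mark the run of pyrimidines from the annotated start, and 12 bases before the start are included.
Rpl15 (large subunit, chr14:18270969-18270998, minus strand): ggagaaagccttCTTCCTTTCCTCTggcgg
Rpl35 (large subunit, tunnel exit, chr2:39005114-39005143, minus strand): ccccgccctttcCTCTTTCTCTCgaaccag
Rps10 (small subunit head, chr17:27635227-27635256, minus strand): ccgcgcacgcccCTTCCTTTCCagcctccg
Rps15a (small subunit, chr7:118116130-118116159, minus strand): tctttctgccatCTTCCCTCgccggtgagt
Rps6 (small subunit, substrate of S6 kinase, chr4:86857350-86857379, minus strand): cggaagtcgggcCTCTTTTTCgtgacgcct
Rps27 (small subunit, chr3:90213631-90213660, minus strand): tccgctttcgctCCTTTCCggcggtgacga

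For the 13 members with such an annotated start the median log2 fold change was 0.44. For the 48 tested members whose windows lacked it, the median was also 0.44. Their tract may lie beside the annotated start, so these medians do not compare members with and without a tract. The motif CCGGAAG, the core of sites bound by ETS family factors, was searched on both strands and lay in the window of 40.6% of members and 9.93% of all genes, with medians of 0.44 with it and 0.43 without it. The window also held AAGATGG, the core of YY1 sites, for 15.6% of members and 7.28% of genes, GGGCGG, the core of Sp1 sites, for 62.5% and 38.2%, and TATAAA for 10.9% and 15.7%, all on both strands. Matches are a description of the letters and not of binding. The 4 members below are among those with the smallest p in the comparison and hold CCGGAAG, shown in capitals as it reads on the gene's strand (CTTCCGG where it lies on the other strand).
Rpl39 (from base 24 of the transcript, chrX:37085182-37085210, minus strand): ctaatcgcgttCTTCCGGtcccggccttt
Rps27l (from base 10 of the transcript, chr9:66946084-66946112, plus strand): ccgcctctatcCCGGAAGttgctgagggg
Rps26 (214 bases before the start, chr10:128626703-128626731, minus strand): ttaatcttccgCCGGAAGgttaaatagtt
Rpsa (188 bases before the start, chr9:120127567-120127595, plus strand): cgccccagctaCTTCCGGcctggggtctg

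Among large subunit genes, Rpl4, Rpl17 and Rpl39 of the peptide exit tunnel had the smallest p, while other tunnel genes ranked behind genes outside the tunnel. Rpl4, whose loop narrows the tunnel, was at 602, 633, 587 and 629 CPM in cKO and at 415, 459 and 483 CPM in WT. These groups did not overlap and the spread within each was small, with a log2 fold change of 0.44 ± 0.10 (SE; adjusted p = 0.0967). Rpl17, at the rim of the tunnel, was at 195, 182, 176 and 238 CPM in cKO and at 125, 115 and 154 CPM in WT, a log2 fold change of 0.59 ± 0.14 (adjusted p = 0.0978). Rpl39, a very small protein in the lower tunnel, was at 46.2, 46.4, 51.6 and 58.9 CPM against 27.2, 36 and 38.4 CPM, a difference of 0.58 ± 0.14 (adjusted p = 0.112). For both genes every cKO library was above every WT library. Groups did not overlap for 8 of the 9 tested tunnel genes (88.9%), against 67.1% of all members and 8.86% of all genes. The median of the 9 was 0.49, and the tenth, Rpl26, had no counts.

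Rpl23 and Rpl5 completed the 5 large subunit genes with the smallest p. Rpl23, at the face that meets the small subunit, had 206 ± 16 CPM in cKO (SD, n = 4) and 151 ± 16 in WT (n = 3), with a log2 fold change of 0.45 ± 0.11 (adjusted p = 0.112). Rpl5 carries 5S ribosomal RNA into the subunit together with Rpl11, and free copies of both bind the p53 regulator Mdm2. Rpl5 was at 170, 190, 168 and 181 CPM in cKO and at 116, 137 and 141 CPM in WT, with no overlap (0.43 ± 0.11, adjusted p = 0.115). Rpl11 was at 241 to 351 CPM in cKO and 190 to 249 CPM in WT, and its groups overlapped (0.35 ± 0.14, adjusted p = 0.251).

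The P-stalk recruits the elongation factors to the ribosome. Rplp0, its base, was at 560, 616, 586 and 843 CPM in cKO and at 417, 454 and 497 CPM in WT (0.51 ± 0.15, adjusted p = 0.142). Rplp2 was at 193, 222, 200 and 272 CPM against 132, 174 and 187 CPM (0.43 ± 0.15, adjusted p = 0.189). Both were separated between groups, with cKO library 4 highest. Rplp1, the partner of Rplp2, was at 516, 547, 523 and 779 CPM against 362, 470 and 544 CPM. Its WT library 3 was above 2 of the cKO libraries, so the groups overlapped (0.37 ± 0.17, adjusted p = 0.32). Rpl12, beside the stalk, had a log2 fold change of 0.38 ± 0.14 (adjusted p = 0.205).

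Several small subunit genes had p-values near those of the tunnel genes. Rps26, which touches the mRNA as it leaves the ribosome, was at 108, 122, 109 and 140 CPM against 73.0, 89.2 and 88.6 CPM (0.52 ± 0.13, adjusted p = 0.112). Rpsa, which also serves as a laminin receptor, was at 262, 304, 254 and 375 CPM against 177, 203 and 225 CPM (0.57 ± 0.15, adjusted p = 0.125). Rps15a was at 108, 106, 107 and 135 CPM against 71.3, 87.5 and 86.6 CPM (0.48 ± 0.13, adjusted p = 0.128). In each of these 3 genes the lowest cKO library was above the highest WT library, and cKO library 4 was the highest of all.

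Other genes of the small subunit fell in the same range. Of the 7 genes along the mRNA path, 3 (42.9%) were separated between groups and the median was 0.40. Of the 10 in the head and beak, 6 (60%) were separated and the median was 0.43. The share separated with cKO higher was 67.1% of all members and 8.86% of all genes. Rps19, the gene most often mutated in Diamond-Blackfan anaemia, was at 99.4, 97.9, 95.7 and 146 CPM in cKO and 67.2, 67.0 and 83.7 CPM in WT (0.59 ± 0.16, adjusted p = 0.131). Rps6, whose phosphorylation is used as a readout of mTORC1, was at 188, 217, 206 and 255 CPM against 127, 167 and 167 CPM (0.49 ± 0.14, adjusted p = 0.134). Both were named here for their role, after their values were seen, and in both the groups did not overlap.

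Levels of different genes were compared per kilobase of transcript, on the mean CPM of WT. Rplp1 was highest at 919 CPM per kilobase, followed by Rps15 at 609, Rps9 at 606, Rpl13a at 590, Rps14 at 564, Rpl8 at 561, Rps29 at 510 and Rpl41 at 413. In cKO the values of these genes, in the same order, were 1185, 785, 797, 784, 779, 737, 690 and 518 CPM per kilobase. These 8 genes are the 4 most abundant of each subunit, and their fold changes, 0.32 for Rpl41 to 0.47 for Rps14, lay within the range of the rest. The groups overlapped for Rplp1, Rpl41 and Rps15 and not for the other 5. Across the 82 members the fold change had a Spearman correlation of -0.06 with the WT level, -0.19 with GC content and -0.05 with transcript length, a description over genes that share the libraries.

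Paralog copies ranged from no more than a few counts to over 100 CPM. Rpl10l, known from testis, had 1 count in 1 library, and Rpl3l, known from heart and skeletal muscle, was at most at 0.0952 CPM. Rpl39l, known from male germ cells, had 19, 9, 18 and 53 counts in cKO libraries and 13, 5 and 3 in WT libraries, and its fitted log2 fold change of 1.82 ± 0.68 (adjusted p = 0.207) rests on these few counts. Rpl22l1 was at 20.8, 18.7, 22.8 and 21.1 CPM in cKO and 11.9, 16.6 and 16.9 CPM in WT, without overlap (0.46 ± 0.15, adjusted p = 0.168), below its parent Rpl22 at 102 to 135 CPM in WT. Rps27l was at 29.6, 27.1, 29.1 and 38.4 CPM against 17.1, 20.6 and 23.0 CPM, also without overlap (0.62 ± 0.16, adjusted p = 0.115). Rpl36al (0.33 ± 0.17, adjusted p = 0.353) had overlapping groups at 49.4 to 74.7 CPM in cKO and 39.6 to 55.7 CPM in WT. Rpl7l1, a relative of Rpl7, was at 130, 148, 148 and 177 CPM against 129, 139 and 150 CPM, a log2 fold change of 0.12 ± 0.12 (adjusted p = 0.693). Rpl36al and Rpl7l1 were the paralogs with the highest levels. Rps4y2 is a synonym of Rps4l in RefSeq, listed there as a transcribed pseudogene, and was at 26.0 to 35.6 CPM in cKO and 25.9 to 32.6 CPM in WT (0.12 ± 0.14, adjusted p = 0.718).

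A log2 fold change below 0 was fitted for 3 members, and all 3 had overlapping groups. Rps27 had 44, 33, 57 and 79 counts in cKO and 61, 77 and 88 in WT (-0.41 ± 0.28, adjusted p = 0.513), and Rpl34 had 81, 56, 76 and 102 against 62, 129 and 145 (-0.39 ± 0.27, adjusted p = 0.505). Rpl30 was as low, with 57, 71, 38 and 67 counts against 38, 49 and 59, and Rpl26 had no count in any library. These levels were far below those of other core proteins: 74 of the 85 members averaged over 1000 counts. The reference transcripts of Rps27, Rpl34, Rpl30 and Rpl26 match 3, 5, 12 and 6 annotated pseudogenes over at least 200 bases at 95% identity or more, and the counting rule for reads with several matches is not given in the sources used here. Such copies were found for 75 of the 84 members aligned, however, including members with high counts such as Rpl21 with 60 and Rpl7a with 38, so their number alone did not separate the low members; the part of read assignment in these levels was not tested. Rpl29, with 31 such copies, was at 47.7, 85.5, 9.28 and 60.5 CPM in cKO and 32.5, 55.7 and 70.1 CPM in WT, a value of -0.06 ± 0.70 (adjusted p = 0.979) set by the low cKO library 3: without that library it was 0.29.

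Members went up and down together from library to library. A member's log2 CPM had a median Pearson correlation of 0.966 with the mean of the other members over the 7 libraries, and it was above 0.8 for 75 of 82. It was under 0.5 for 4, Rps27, Rpl34, Rpl29 and Rps4y2. Of 82 members, 74 were highest in cKO library 4 and 70 were lowest in WT library 1. The shares of all genes with these extremes are not given here. Members above their own mean over all libraries numbered 52, 79, 71 and 82 in cKO libraries 1 to 4 and 3, 6 and 14 in WT libraries 1 to 3. The genes outside the list that followed this profile most closely, of 5156 whose log2 CPM averaged 5 or more, were Gmfg (r = 0.998), Kars (0.995), Taldo1, H2-Ke2 and Ino80b (0.990 each), over the same 7 libraries.

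**Figure D3:**
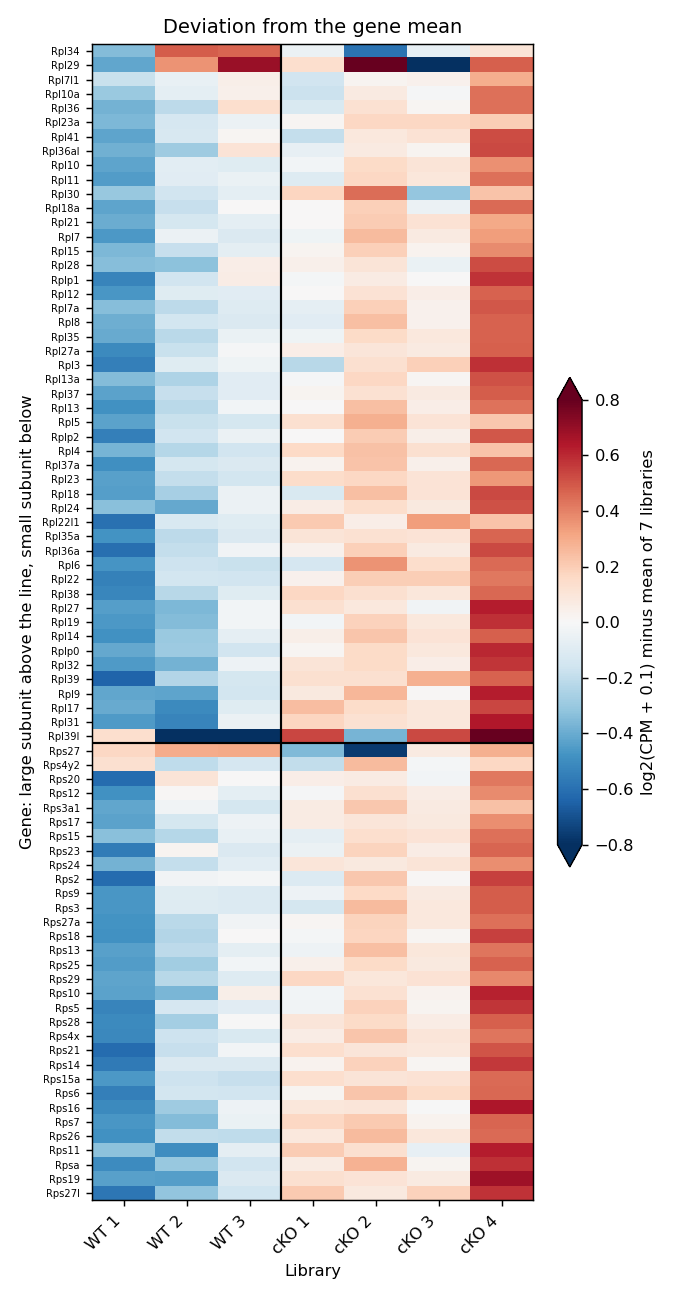
Each row is a member tested (1 is not drawn) and each column a library. Colour gives the log2(CPM + 0.1) of the gene minus its mean over the 7 libraries, cut at 0.8 either way. Nearly all genes of both subunits are lowest in WT library 1 and highest in cKO library 4, and Rps27, Rpl34, Rpl29 and Rps4y2 follow the others least.

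Because 2 libraries stood at the ends, the difference was recomputed without them. Leaving out cKO library 4 gave a median log2 fold change of 0.32, and leaving out WT library 1 also 0.32. Leaving out both gave 0.21, beside 0.0057 for all genes tested, with 76 of 82 members above 0. Of the members, 28 were higher and 1 lower at an unadjusted p under 0.05, and 0 passed the threshold. This fit called 0.521% of all genes higher at the threshold. Their shares above 0 and at the unadjusted cut are not given here. The same 2 libraries were at the ends of a trend with transcript length: across genes outside the list, the Spearman correlation of length with a library's deviation was -0.36 in cKO library 4 and 0.40 in WT library 1, and 0.30, -0.16 and 0.01 in cKO libraries 1 to 3 and -0.07 and -0.22 in WT libraries 2 and 3. The same correlation with GC content was -0.52, 0.16, -0.41 and 0.44 in cKO libraries 1 to 4. In WT libraries 1 to 3 it was -0.01, 0.07 and 0.24, so WT library 1 was not at an end for GC content. Members have short transcripts, with a median of 772.5 bases against 2641 for all genes tested. Offsets for GC content and length adjust both at once, and the part of either in the difference was not tested. With these offsets the median was 0.26, beside -0.0078 for all genes tested, and 58 members were higher and 2 lower at an unadjusted p under 0.05. The share of all genes at that unadjusted cut is not given for this fit. The threshold was passed by 13 (3.1% of all genes were called higher). Xist, the RNA of the inactive X chromosome of female cells, was above 1 CPM in cKO libraries 2 and 4 and WT libraries 2 and 3. Within the libraries with Xist, 2 per group, the median difference was 0.45, and within those without it, 2 cKO and 1 WT, it was 0.50. Within mouse numbers 1058 to 1062 (2 cKO and 1 WT) it was 0.56 and within 1101 to 1109 (2 and 2) it was 0.40. With the level of Xist as a covariate the median was 0.52, and 71 members, 40 large and 31 small, passed the threshold, with 6.21% of all genes called higher. Members past the threshold, each time higher in cKO, numbered 25 with DESeq2 (3.12% of all genes called higher), 19 with limma-voom and quality weights (4.27%), 10 with a block for each run of mouse numbers (1.14%), 38 with the offsets and Xist together (6.71%) and 2 without cKO library 1 (0.933%). The number of members past the threshold is thus between 0 and 71 depending on the model, while the median was above 0 under each of the 23 alternatives.

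**Figure D4:**
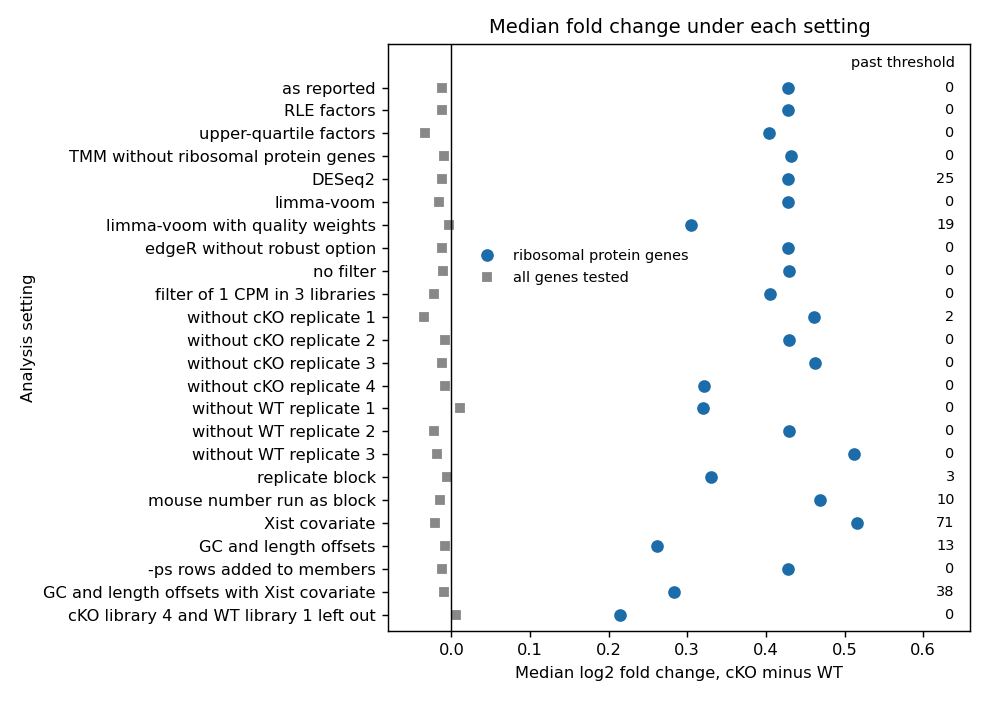
Points show the median log2 fold change (cKO minus WT) of the members tested and of all genes tested under each analysis setting, and the column at the right gives how many members were higher with an adjusted p under 0.05. The members' median runs from 0.21 to 0.52, and all genes stay near 0.

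Parts of the ribosome with other symbols had values like those of the members. Rack1, a signalling scaffold on the small subunit listed under its older symbol Gnb2l1, was at 470, 572, 505 and 701 CPM in cKO and 354, 410 and 438 CPM in WT (0.49 ± 0.15, adjusted p = 0.149). Fau, made as a fusion with a ubiquitin-like protein, had 0.50 ± 0.16 (adjusted p = 0.154). The groups did not overlap for either gene.

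The list of other TOP mRNAs, which holds both of these as well, was the pathway list nearest to the members. Of 27 genes, 1 passed the threshold higher and 0 lower, 14 (51.9%) were separated with cKO higher and 1 with cKO lower, against 8.86% and 7.2% of all genes, and the median was 0.36. The 1 called was Eef1a1, the elongation factor that brings aminoacyl-tRNA to the ribosome, at 2656, 2707, 2573 and 2900 CPM in cKO and 1659, 1772 and 1936 CPM in WT (0.60 ± 0.11, adjusted p = 0.0452). Pabpc1, the poly(A)-binding protein, had 0.50 ± 0.11 (adjusted p = 0.0908) and Btf3, part of the nascent chain complex, 0.51 ± 0.12 (adjusted p = 0.0978).

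The machinery that makes ribosomes had medians nearer to 0. Its lists also have longer transcripts than the members, whose median length was 772.5 bases. Median lengths were 1724 bases for polymerase I, 2953 and 2491 for small and large subunit assembly, and 2077 for small nucleolar RNPs and the nucleolar core. For the other TOP mRNAs the median length was 1737 bases. The part of length in the differences between lists was not tested. For the 11 genes of RNA polymerase I and its factors, 0 passed the threshold and the median was -0.02 (Polr1d 0.31 ± 0.12, adjusted p = 0.226; Taf1c -0.25 ± 0.12, adjusted p = 0.313; Taf1a -0.13 ± 0.18). For 49 genes of small subunit assembly the median was -0.01, with Imp4 at 0.32 ± 0.14 (adjusted p = 0.267), Utp11l at 0.24 ± 0.12 and Pno1 at 0.24 ± 0.13. For 53 genes of large subunit assembly it was -0.00034, with Nsa2, an assembly factor of the large subunit, at 0.57 ± 0.11 (adjusted p = 0.0596), Urb1 at -0.34 ± 0.11 (adjusted p = 0.169) and Gltscr2, also named Nop53, at 0.33 ± 0.13 (adjusted p = 0.238). In both assembly lists 0 genes passed the threshold, and groups were separated with cKO higher for 2 (4.08%) and 3 (5.66%) of them, below the 8.86% of all genes. The 13 genes of small nucleolar RNPs and the nucleolar core had a median of 0.18 and 0 calls, 12 of them were above 0 (92.3%, against 48.1% of all genes), and 3 (23.1%, against 8.86%) were separated with cKO higher. Nop10, a small protein of the pseudouridylation complex, was at 29.3, 28.5, 28.8 and 38.5 CPM in cKO and 16.8, 18.7 and 23.4 CPM in WT (0.67 ± 0.16, adjusted p = 0.0985), and Fbl and Ddx21 were at 0.30 ± 0.12 and 0.26 ± 0.11.

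Regulators of ribosomal protein synthesis, the 23 genes of the mTORC1 pathway with Larp1 and Myc, had 0 calls and a median of 0.03. Eif4ebp2, a brake on cap-dependent translation, had 0.39 ± 0.12 (adjusted p = 0.15), Eif4e, its target, 0.34 ± 0.11 (adjusted p = 0.159) and Myc, a driver of ribosome synthesis, 0.40 ± 0.15 (adjusted p = 0.207). The 76 mitochondrial ribosomal proteins, which build a separate ribosome, had 0 calls and a median of 0.12, with 58 (76.3%, against 48.1% of all genes) above 0 and 6 (7.89%, near the 8.86% of all genes) separated with cKO higher. The 3 with the smallest p were Mrpl13 at 0.47 ± 0.15, Mrpl42 at 0.46 ± 0.15 and Mrpl21 at 0.40 ± 0.15, with adjusted p of 0.162, 0.17 and 0.213. The difference between these lists and the members was not tested.

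**Figure D5:**
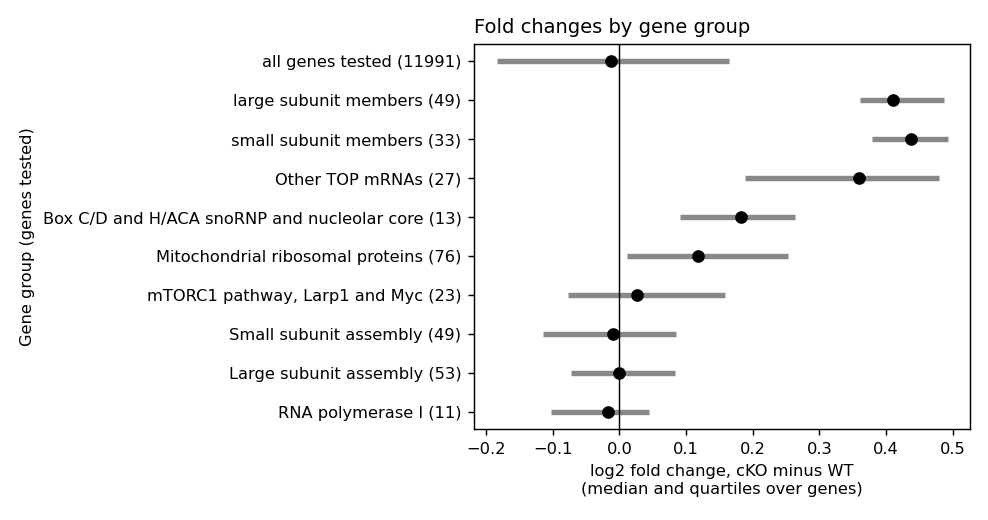
Points give the median and bars the quartiles of the log2 fold change (cKO minus WT) over the genes of each group, with the number tested in brackets. The large and small subunit genes have medians of 0.41 and 0.44 and the other TOP mRNAs 0.36, and the assembly and polymerase I groups lie near 0 with all genes tested.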

How the data were processed

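Poly(A)-selected RNA of sorted cortical microglia was sequenced in 4 cKO and 3 WT mice, 1 library each, so each p-value rests on how much single mice vary. The authors deposited 1 table of whole-number counts per gene symbol, which were not normalized. DRAGEN and the build GRCm39 are named in the submitters' processing notes; the sources used here do not give the annotation, the rule for reads with several matches or whether strand was used, and members with pseudogene copies have an uncertain assignment.

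Counts were fitted with edgeR 4.0.16 in R 4.3.3 (TMM factors, robust quasi-likelihood F test, Benjamini-Hochberg adjustment over all genes tested, threshold 0.05). Genes entered when edgeR's filter passed (least count 10, least total 15), and 11991 of 23420 did, while 7033 had no count. CPM use the same factors, and standard errors come from the log2 fold change and the F statistic. No symbol was repeated and 0 columns of other samples were in the table. The calculations were tested on simulated data.

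Members and gene lists were chosen with earlier results of these data known. Named members are, in each subunit, the 5 with the smallest p and the 4 highest in WT per kilobase, those with a log2 fold change below 0, paralog copies, the stalk proteins, Rpsa and Rpl41, and of each pathway list up to 3 with the smallest p, 29 members in all, of which 27 were tested. Values of a few single genes are not reported here. Transcript length, GC content (99.2% of genes tested) and pseudogene copies (blastn 2.17.0) come from GENCODE M21, and start windows from RefSeq (GRCm38.p6). Of 270 list symbols, 266 were matched, 9 of them by a synonym. Alternatives were other scaling factors, DESeq2 1.42.0, limma 3.58.1 (voom, with and without quality weights), other filters, each library left out, blocks by replicate number and by run of mouse numbers, Xist as a covariate, and offsets for GC content and length (loess, span 0.3).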

Additional observations from a re-analysis of the deposited data

Results flagged for a closer look

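In cKO library 4, Rplp1 was at 779 CPM while the other 3 cKO libraries were between 516 and 547 CPM, and the gap to the nearest of them was 0.883 of the whole range of the group. Rps15a was at 135 CPM in the same library, with the others between 106 and 108 CPM and a gap of 0.924 of the range. Rps19 was at 146 CPM, with the others between 95.7 and 99.4 CPM and a gap of 0.926. Outside the members, Nop10 was at 38.5 CPM in that library, with the others between 28.5 and 29.3 CPM and a gap of 0.926. These gaps are above Dixon's 95% critical value for 4 samples, which chance alone passes in about 1 in 20 groups. Of the genes with values above, 62 were looked at in this way, in the cKO group only, since WT has 3 libraries. The cKO library 4 was the highest library for 74 of the 82 members tested, and the share of all genes is not given here.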

How the results depend on the processing

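At an unadjusted p under 0.05, 69 members were higher with edgeR's quasi-likelihood test, against 9.65% of all genes. Without WT library 1, 35 were, and the share of all genes in that fit is not given here. At the adjusted threshold, 0 members passed. Alternatives with more calls, each for higher members, were DESeq2 (25), limma-voom with quality weights (19), a block for each run of mouse numbers (10), the Xist covariate (71), GC and length offsets (13), and, added after seeing the data, these offsets with the Xist covariate (38). Leaving out single libraries gave 0 to 2. Every member called under one of these was also called with the Xist covariate. The other scaling factors, filters, plain limma-voom and the added pseudogene counts gave 0. Lower calls were 0 throughout the alternatives run.

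The labels do not say that replicate numbers pair the samples. Deviations from the group mean had correlations of 0.387, 0.0691 and -0.173 for same-numbered libraries. For differently numbered libraries they ran from -0.368 to 0.375. Values from so few libraries cannot decide whether the numbers pair them. With the replicate block, 3 members passed, Rpl39 and Rps26 among them, where 1.44% of all genes were called higher, and 288 genes were called in all, and the median was 0.33.

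The median of all members, 0.43, ran from 0.32 to 0.51 over the single libraries left out (0.32 to 0.51 for the large and 0.33 to 0.53 for the small subunit), and the difference in share from 0.346 to 0.522 percentage points. Without both cKO library 4 and WT library 1, an alternative added after seeing the data, it was 0.21, with 0.21 for the small subunit and 0.22 for the large. Rpl29 changed sign: it was 0.29 without cKO library 3, 0.20 without WT library 3, 0.24 with the Xist covariate and 0.039 with that and the offsets, and its range over single libraries left out was -0.43 to 0.29. Rpl7l1 was -0.026 without the 2 libraries above. The cause of these changes was not tested. Counts were fewest for Rpl39l, Rps27, Rpl34 and Rpl30 among the members tested; counting error and spread between mice were not separated.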
